A study of Mus musculus with 18 samples.

Results

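Lysosomes are the acidic compartments in which cells take apart material they have swallowed or sorted for disposal. Their lumen holds acid hydrolases, each of which cuts 1 kind of bond in sugar chains, lipids or proteins. Their membrane is lined with heavily glycosylated proteins, and a proton pump, the V-ATPase, uses ATP to keep the lumen acid. The basic helix-loop-helix factors TFEB and TFE3 switch on many lysosomal genes when they enter the nucleus. In dendritic cells (DCs) the same compartments supply the proteases and the pH that prepare antigen for MHC molecules, and their activity is regulated as the cells mature.

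The 41 genes described here are 13 hydrolases of sugar chains, 8 genes of lipid breakdown, 5 genes acting on proteins or phosphate or supporting those enzymes, 7 membrane proteins, 6 subunits of the proton pump and the 2 transcription factors. They were taken by name from a list of lysosomal genes, and each was measured by the probeset with the highest mean among those that the array annotation ties to that gene alone. All 41 listed genes were found, out of 19938 genes with such a probeset. Only Arsb had a second probeset, and its change in CTRL was -3.69 on the probeset used and -3.61 on the other.

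The samples were XCR1+ DCs sorted from the thymus of untreated mice of the B6 strain, on 18 Affymetrix arrays in 6 groups of 3. XCR1+ DCs take up dying cells and show their antigens to CD8 T cells. Every sample was gated as CD11c+, MHCII+, XCR1+ and CD8a+ and as CD11b- and CD172a-. Immature cells were CD117+ and CCR7-, and cells that had matured without any stimulus given were CD117- and CCR7+. CTRL mice were wild-type and kept free of specific pathogens (SPF), Ifnar1-KO mice lacked a chain of the type I interferon receptor and were also SPF, and GF mice were wild-type and germ-free. The labels give neither age nor sex, and it is not stated that the replicates were different animals, so p-values measure the spread between these arrays, which may be technical.

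Several facts about the arrays bear on the values below. Ifnar1 itself stood at 8.07, 7.27 and 7.66 on the CCR7- and 7.61, 6.07 and 6.96 on the CCR7+ arrays labelled Ifnar1-KO, replicates 1 to 3, against 8.06 to 8.09 and 7.61 to 7.82 in CTRL. Replicate 1 therefore lay at the CTRL level, and it is not stated whether the probes lie in the deleted part, so the genotype is given here as labelled. Over the 2000 genes of a principal component analysis, both replicate 2 arrays labelled Ifnar1-KO and replicates 2 and 3 of GF in both stages stood apart on the second component (4.20% of the variance, at -20.91 to -6.86 against 3.57 to 10.92 for the others). XCR1+ DC markers averaged 10.3 to 10.5 on CCR7- arrays and 8.24 to 9.04 on CCR7+ arrays, where Xcr1 itself was low (4.89 to 8.36 against 11.28 to 11.56). The 18 thymocyte markers measured averaged 4.78 to 5.43 on CCR7- and 5.35 to 7.89 on CCR7+ arrays, highest on an array labelled Ifnar1-KO. In CTRL 4 of these 18 were called higher in CCR7+ cells, where 12.6% of all genes were. The part of the thymocyte markers in the results below was not tested. The 15 macrophage markers measured averaged 4.56 to 4.85 on all arrays, but differed among themselves. Adgre1, at 3.40 to 3.75, and Mertk, at 3.40 to 3.67, mark resident macrophages and were low throughout, while C1qc ran from 4.58 to 5.66. Lyz2 (8.15 to 9.61 on CCR7- and 5.27 to 8.06 on CCR7+ arrays), Csf1r (5.54 to 6.20 and 4.44 to 4.77) and Hmox1 (5.09 to 5.98 and 4.07 to 4.67) were lower on CCR7+ arrays, and Axl (4.93 to 5.83 and 6.28 to 7.83) and Spic (3.70 to 4.48 and 5.26 to 7.17) were higher. The part of these markers in the results was not tested. The levels of Adgre1 and Mertk are near the 3.27 to 4.62 of the Y-linked genes Kdm5d, Eif2s3y and Uty on CTRL arrays, where Xist was high (7.80 to 9.63), a range used below as the approximate background.

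Values are log2 intensities, on which 1 unit is a doubling, and a change is the mean of CCR7+ minus the mean of CCR7- arrays ± SE. Genes were called at a limma adjusted p (Benjamini-Hochberg over all genes) below 0.05. Levels of different genes are not comparable on these arrays, since probes differ in brightness. On bulk samples such as these, fewer cells with a message and less message per cell cannot be told apart.

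The first comparison was between matured and immature cells. Among the 41 genes chosen, the calls split by role. Most hydrolase genes that were called were lower in the CCR7+ cells, while all called membrane protein genes and most called pump subunits were higher. The genes acting on proteins or phosphate were mixed, and the membrane and pump roles rest on few genes. The split did not extend to every wider list given below. Of 43 other membrane proteins, 6 rose and 10 fell in CTRL mice. The 19 other pump genes were called in shares near or below those of all genes. In CTRL mice 28 of the 41 genes were called, 12 higher and 16 lower, where 26.2% of all genes were called (12.6% higher and 13.6% lower). In Ifnar1-KO mice 18 were called, 9 higher and 9 lower, where 20.2% of all genes were called (9.42% higher and 10.8% lower). In GF mice 22 were called, 9 higher and 13 lower, where 21.3% of all genes were called (9.53% higher and 11.8% lower). All members but Mcoln2 and Atp6v0d2 had a mean signal above the median of all genes, whereas the shares of all genes include those near background. The part of signal level in these counts was not tested. The median change of the 41 genes was -0.17 in CTRL, -0.09 in Ifnar1-KO and -0.27 in GF mice, beside 0.07, 0.0 and 0.03 for all genes. By role, the median CTRL change was -0.40 for the sugar hydrolases, -1.05 for lipid breakdown, 0.07 for proteins and phosphate, 0.41 for membrane proteins and 0.38 for the pump. Changes of at least 1 log2 unit that were called numbered 14 of 41 in CTRL, 5 up and 9 down, where 12.0% of all genes moved that far.

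The 3 backgrounds gave much the same picture gene by gene. A set of 9 genes rose in each background (Gaa, Idua, Tpp1, Acp2, Lamp1, Lamp2, Cd63, Atp6v0a1 and Atp6v1a), where 6.74% of all genes did. Another 9 fell in each (Hexa, Gusb, Man2b1, Arsb, Sgsh, Naaa, Lipa, Ppt1 and Psap), where 8.71% of all genes did. Of these 18 genes, Gusb and Lamp2 lost their GF call when certain single arrays were left out, as given below. With the GF arrays fitted alone, Gusb, Lamp2 and Tpp1 were not called in GF mice (limma adjusted p = 0.105, 0.0941 and 0.0562). Losses of calls among these genes in further settings are also given below. On the arrays themselves, those 9 rising genes had all 9 CCR7+ values above all 9 CCR7- values, as 7.0% of all genes did. The 9 falling genes, with Fuca1 and Ctsa, had all 9 CCR7+ values below all 9 CCR7- values, as 8.28% of all genes did. A further 13 genes were called in no background, 10 in some, and 0 were called in opposite directions.

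**Figure D1:**
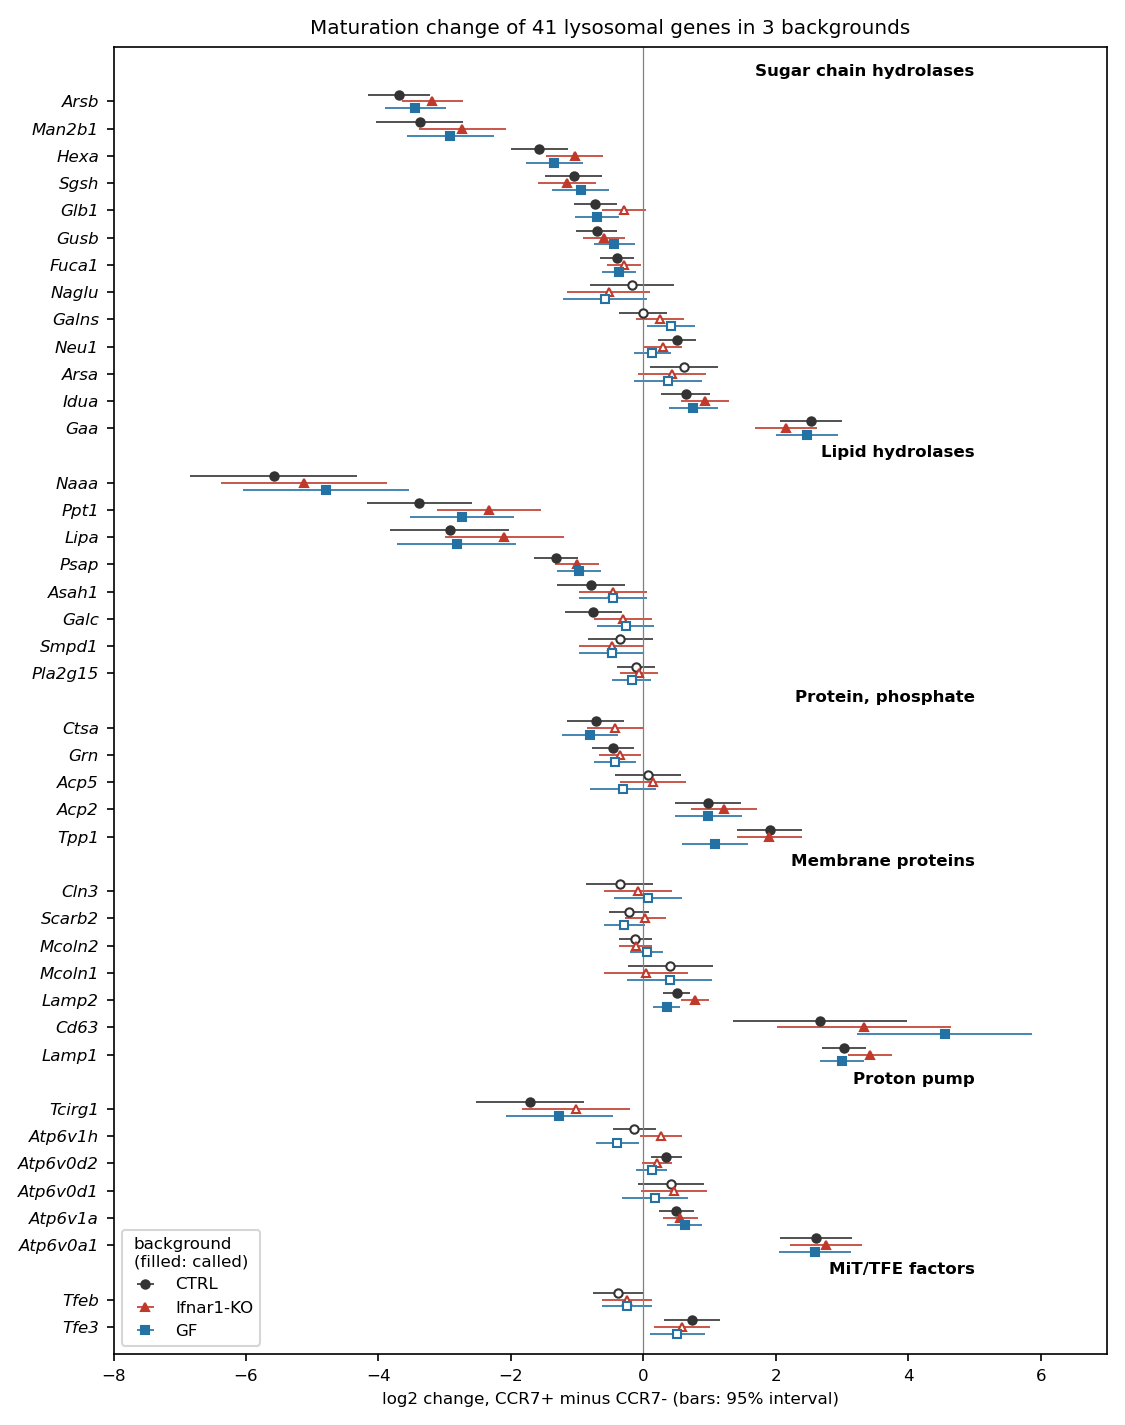
The log2 change from CCR7- to CCR7+ cells (horizontal axis) is plotted for all 41 genes, grouped by role, with 1 symbol per background and bars for the 95% interval of each change. Filled symbols were called. Naaa, Arsb, Man2b1, Ppt1 and Lipa lie farthest to the left and Lamp1, Cd63, Atp6v0a1 and Gaa farthest to the right, and the symbols of a gene lie close together in most rows.

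The promoters were read beside these changes, because TFEB and TFE3 are known to bind the E-box CACGTG, which is palindromic and so reads the same on both strands, within a longer site that has GT before it and AC after it. A window from 250 bases before to 50 bases after the start of transcription was available in RefSeq (build GRCm38.p6) for 37 of the 41 genes, all but Galns, Asah1, Atp6v0d2 and Atp6v1h. CACGTG occurred in the windows of 12 of the 37 genes (32.4%), beside 8.09% of the 27025 genes with a window and 7.15% of all 32851 windows. The 7 letters TCACGTG, which contain that E-box and were searched on both strands, occurred in 11 of the 37 genes (29.7%). The share was 4.29% of the 27025 genes with a window and 3.77% of all windows. The longer site, with both flanks, occurred in 1 of the 37 genes, Cln3 (2.7%), beside 0.37% of genes with a window and 0.326% of all windows. CACGTG was present in 3 of the 11 genes called higher in CTRL CCR7+ cells, 3 of the 15 called lower and 6 of the 11 not called, where the shares over the array's genes were 9.65%, 12.8% and 8.82%. A match describes letters only, and no binding was measured.

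The 150 bases before the start are printed 5′ to 3′ on the strand of the gene for 7 genes, with each CACGTG in capitals. They show 3 genes that rose (Lamp1, Gaa and Cd63), 3 that fell (Sgsh, Naaa and Arsb) and Mcoln1, which was not called. Lamp1 lies at chr8:13159011-13159160 and Gaa at chr11:119267813-119267962, both on the plus strand. Cd63 lies at chr10:128909195-128909344 and Mcoln1 at chr8:3500369-3500518, both on the plus strand. Sgsh at chr11:119355511-119355660 and Naaa at chr5:92278182-92278331 are on the minus strand, and Arsb at chr13:93771529-93771678 is on the plus strand.
Lamp1: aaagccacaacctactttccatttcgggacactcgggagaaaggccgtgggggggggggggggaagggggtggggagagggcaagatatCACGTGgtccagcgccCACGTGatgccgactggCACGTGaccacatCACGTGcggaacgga
Gaa: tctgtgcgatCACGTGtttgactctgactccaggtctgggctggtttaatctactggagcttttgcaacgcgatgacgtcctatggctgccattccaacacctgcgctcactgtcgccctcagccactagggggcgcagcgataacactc
Cd63: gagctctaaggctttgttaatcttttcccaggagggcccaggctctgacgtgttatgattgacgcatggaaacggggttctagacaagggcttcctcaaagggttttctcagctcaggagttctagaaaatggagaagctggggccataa
Mcoln1: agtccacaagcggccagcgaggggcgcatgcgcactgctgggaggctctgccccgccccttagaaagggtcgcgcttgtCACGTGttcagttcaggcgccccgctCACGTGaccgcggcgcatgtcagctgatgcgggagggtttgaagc
Sgsh: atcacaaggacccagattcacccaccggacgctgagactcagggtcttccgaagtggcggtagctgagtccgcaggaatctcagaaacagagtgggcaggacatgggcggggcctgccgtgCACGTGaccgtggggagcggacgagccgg
Naaa: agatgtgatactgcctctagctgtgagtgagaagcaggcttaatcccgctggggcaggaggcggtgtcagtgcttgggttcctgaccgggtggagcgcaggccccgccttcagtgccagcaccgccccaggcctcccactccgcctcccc
Arsb: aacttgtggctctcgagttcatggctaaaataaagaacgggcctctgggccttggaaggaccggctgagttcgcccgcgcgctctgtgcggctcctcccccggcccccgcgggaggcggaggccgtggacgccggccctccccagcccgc

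Lamp1 held 4 matches, more than any other of the 37 genes, with first bases at -61, -45, -28 and -15 from the start, and it rose in each background. Mcoln1 held 2 matches, at -71 and -45, and was not called in any. Gaa, which rose, held 1 at -140, and Sgsh, which fell, held 1 at -29. The stretches of Cd63, Naaa and Arsb held none, although Cd63 rose and Naaa and Arsb fell in every background. The start used for Cd63 lies inside the RefSeq gene, which spans chr10:128896231-128912822. The sequence before the outer end of Cd63 was therefore not searched. The matches of Cln3, Ctsa, Atp6v1a and Mcoln2 also lie in windows whose start is inside the RefSeq gene. Cln3 is the only gene with the longer site.

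**Figure D2:**
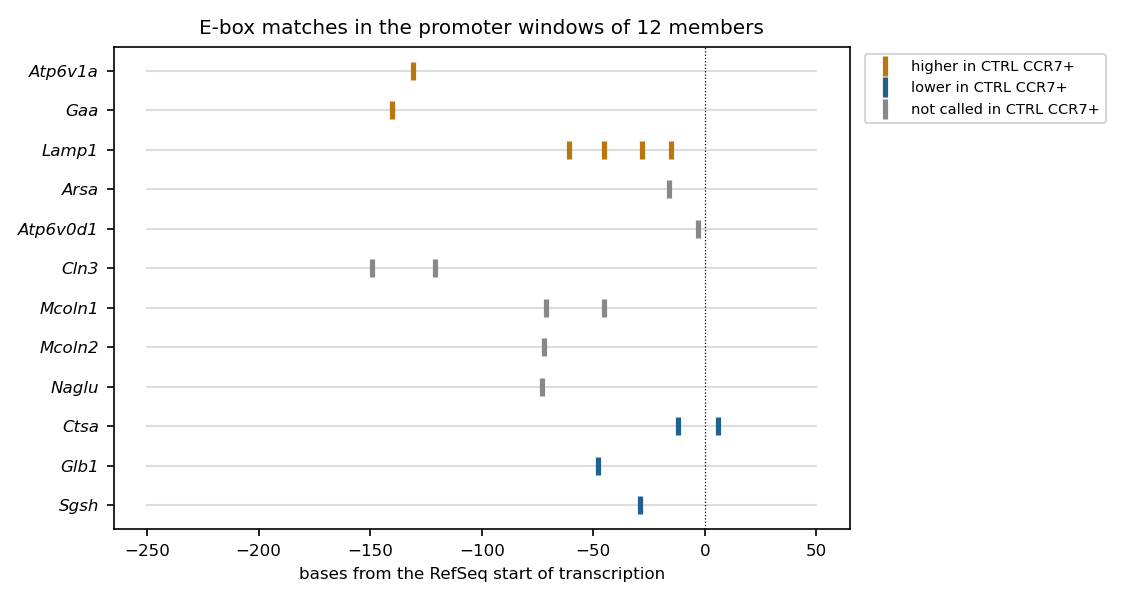
Each mark is the first base of a CACGTG match in the promoter window of 1 of the 12 genes that held any, placed by its distance in bases from the start of transcription (dotted line). Lamp1 has 4 marks, all within 61 bases of the start, and the matches lie in genes that were higher, lower and not called in CTRL CCR7+ cells.

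Among the hydrolases of sugar chains, 3 of 13 rose and 7 fell in CTRL mice, 2 rose and 5 fell in Ifnar1-KO mice, and 2 rose and 7 fell in GF mice. The changes reached from Arsb at the bottom, 12.9-fold lower in CTRL CCR7+ cells, to Gaa at the top, 5.79-fold higher. Arsb encodes arylsulfatase B, which removes sulfate from dermatan and chondroitin sulfate. Arsb (probeset 10406672) stood at 11.44, 11.26 and 11.28 on CTRL CCR7- arrays and at 7.62, 7.85 and 7.43 on CTRL CCR7+ arrays, replicates 1 to 3. In Ifnar1-KO it was 11.34, 11.08 and 11.24 in CCR7- and 7.88, 7.68 and 8.53 in CCR7+ cells, and in GF 11.28, 11.24 and 11.12 and 7.52, 8.29 and 7.49. The immature arrays of all backgrounds lay within a narrow band, and the matured arrays lay far below with a wider scatter. The change was -3.69 ± 0.22 in CTRL (limma adjusted p = 1.48e-08), -3.19 ± 0.22 in Ifnar1-KO and -3.44 ± 0.22 in GF mice.

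Man2b1 encodes the lysosomal alpha-mannosidase, which trims mannose from N-linked sugar chains. It stood at 11.02, 10.81 and 11.0 on CTRL CCR7- and 7.89, 7.44 and 7.38 on CTRL CCR7+ arrays. The values were 10.93, 10.63 and 10.94 and 8.45, 7.41 and 8.43 in Ifnar1-KO, and 10.83, 10.71 and 10.69 and 7.67, 8.61 and 7.20 in GF mice. Its change of -3.38 ± 0.31 in CTRL (adjusted p = 1.04e-06 in limma), a 10.4-fold lower signal, stood beside -2.74 ± 0.31 in Ifnar1-KO and -2.91 ± 0.31 in GF mice. As with Arsb, no matured array reached the lowest immature one. Hexa encodes the alpha subunit of beta-hexosaminidase, the enzyme needed to break down GM2 ganglioside. Its arrays read 9.83, 9.47 and 9.57 and then 8.13, 8.01 and 8.01 in CTRL, 9.73, 9.41 and 9.62 and then 8.31, 8.47 and 8.87 in Ifnar1-KO, and 9.88, 9.58 and 9.84 and then 8.06, 8.98 and 8.23 in GF mice. The CTRL matured arrays lay close together at the bottom, and the highest matured arrays were replicate 3 of Ifnar1-KO and replicate 2 of GF. Hexa fell in each background, with changes of -1.57 ± 0.20, -1.04 ± 0.20 and -1.34 ± 0.20 in CTRL, Ifnar1-KO and GF mice (adjusted p = 2.86e-05, 0.00139 and 0.000144 in limma).

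Sgsh encodes the sulfatase that starts the removal of N-linked sulfate from heparan sulfate. Its values were 6.95, 6.25 and 5.94 on CCR7- and 5.08, 5.42 and 5.49 on CCR7+ arrays in CTRL, 6.34, 6.71 and 6.41 and 5.21, 5.49 and 5.30 in Ifnar1-KO, and 6.40, 6.13 and 6.08 and 5.13, 5.37 and 5.25 in GF mice. Every matured array lay below every immature array, with CTRL CCR7- replicate 1 the highest of all. The changes were -1.05 ± 0.20 in CTRL, -1.15 ± 0.20 in Ifnar1-KO and -0.95 ± 0.20 in GF mice. The smaller called decreases in CTRL were those of Glb1 (-0.72 ± 0.15), the lysosomal beta-galactosidase, Gusb (-0.71 ± 0.15), the beta-glucuronidase, and Fuca1 (-0.40 ± 0.12), the alpha-fucosidase. Glb1 was not called in Ifnar1-KO mice (-0.29 ± 0.15, adjusted p = 0.249 in limma), nor was Fuca1 (-0.30 ± 0.12, adjusted p = 0.105 in limma). The CTRL call of Fuca1 was lost without CCR7- replicate 1 or without CCR7+ replicate 3 (adjusted p = 0.106 and 0.108 in limma), and its GF call in 16 of the 29 alternative settings. The GF call of Gusb was likewise lost in 16 of the 29 settings. It was lost without any single GF array other than CCR7+ replicate 3 (limma adjusted p = 0.0792 to 0.166). Leaving out some single CTRL or Ifnar1-KO arrays also ended it (adjusted p up to 0.0563 in limma). The Ifnar1-KO call of Gusb was lost without both replicate 2 arrays (adjusted p = 0.0682 in limma).

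Gaa, the acid alpha-glucosidase that releases glucose from glycogen, went the other way. It stood at 6.09, 5.84 and 6.22 on CTRL CCR7- and at 8.47, 8.70 and 8.58 on CTRL CCR7+ arrays. In Ifnar1-KO it was 5.97, 7.06 and 6.07 and then 8.45, 8.63 and 8.48, and in GF 6.15, 5.82 and 6.01 and then 8.28, 8.74 and 8.37. The 9 matured arrays lay close together, while Ifnar1-KO CCR7- replicate 2 lay well above the other immature arrays. The rise was 2.53 ± 0.22 in CTRL (limma adjusted p = 6.84e-07), 2.15 ± 0.22 in Ifnar1-KO and 2.47 ± 0.22 in GF mice. Idua, the alpha-L-iduronidase of dermatan and heparan sulfate breakdown, moved from 6.68, 6.66 and 6.81 to 7.34, 7.32 and 7.41 in CTRL, from 6.63, 5.94 and 6.13 to 7.40, 6.84 and 7.24 in Ifnar1-KO and from 6.35, 6.47 and 6.25 to 7.18, 6.83 and 7.33 in GF mice. Its rises of 0.64 ± 0.17, 0.93 ± 0.17 and 0.75 ± 0.17 were called in each. Neu1, the lysosomal sialidase, was called in CTRL mice and in neither other background. Its arrays there read 5.60, 5.52 and 5.61 in CCR7- and 5.76, 6.28 and 6.20 in CCR7+ cells (0.50 ± 0.13, limma adjusted p = 0.0104), against 5.68 to 5.77 and 5.89 to 6.09 in Ifnar1-KO and 5.53 to 5.91 and 5.64 to 5.99 in GF mice. The CTRL call of Neu1 was lost without CCR7+ replicate 2 or 3 (adjusted p = 0.0511 and 0.0507 in limma), and the differences of its change from CTRL were not called. The remaining 3 genes, Arsa, Galns and Naglu, were called in no background and had changes of -0.17 to 0.61 in CTRL mice. Arsa was called in CTRL without GF CCR7+ replicate 1 or 3, and Galns in GF without its CCR7+ replicate 3 (limma adjusted p = 0.0382, 0.026 and 0.0107).

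Among enzymes and helpers of lipid breakdown every called change was a decrease. In CTRL mice 6 of the 8 fell and 0 rose, and in Ifnar1-KO and GF mice 4 fell and 0 rose. The same genes, Naaa, Ppt1, Lipa and Psap, fell in each background, and the median change of the 8 genes was -1.05 in CTRL mice. Naaa, which hydrolyses palmitoylethanolamide and other N-acylethanolamines, had the largest change of the 41 genes in each background. Naaa (probeset 10531370) stood at 12.16, 11.94 and 12.10 on CTRL CCR7- and 6.76, 6.21 and 6.49 on CTRL CCR7+ arrays. In Ifnar1-KO it was 12.14, 11.85 and 12.07 and then 6.78, 5.34 and 8.55, and in GF 11.94, 11.90 and 11.80 and then 7.27, 8.0 and 6.0. The immature arrays lay between 11.80 and 12.16 throughout, whereas the matured arrays of Ifnar1-KO and GF scattered widely. The change was -5.58 ± 0.59 in CTRL (a 47.8-fold lower signal, limma adjusted p = 4.46e-06), -5.12 ± 0.59 in Ifnar1-KO and -4.79 ± 0.59 in GF mice.

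Ppt1 encodes the thioesterase that strips palmitate from proteins on their way to being degraded. It stood at 12.24, 12.26 and 12.31 on CTRL CCR7- and 8.87, 9.02 and 8.77 on CTRL CCR7+ arrays, at 12.24, 12.02 and 12.24 and 9.96, 8.97 and 10.57 in Ifnar1-KO, and at 12.08, 12.02 and 12.07 and 9.05, 10.29 and 8.62 in GF mice. The highest matured arrays were again Ifnar1-KO replicate 3 and GF replicate 2. Ppt1 changed by -3.38 ± 0.37 in CTRL, -2.33 ± 0.37 in Ifnar1-KO and -2.74 ± 0.37 in GF mice (limma adjusted p = 6.1e-06, 0.000245 and 5.46e-05). Lipa encodes lysosomal acid lipase, which frees cholesterol and fatty acids from lipoprotein lipids. Its values were 9.22, 8.54 and 8.94 and 5.95, 6.32 and 5.65 in CTRL, 8.60, 8.42 and 9.14 and 6.11, 7.17 and 6.59 in Ifnar1-KO, and 8.77, 9.47 and 9.24 and 5.13, 6.82 and 7.06 in GF mice. GF CCR7+ replicate 1 was the lowest array and the stages did not overlap. Lipa changed by -2.93 ± 0.42, -2.10 ± 0.42 and -2.82 ± 0.42 in CTRL, Ifnar1-KO and GF mice.

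Psap encodes the precursor of the saposins, small proteins that lift lipids out of membranes for the hydrolases. It was among the brightest probesets, at 12.34, 12.18 and 12.22 and 11.02, 10.53 and 11.24 in CTRL, 12.23, 12.31 and 12.23 and 11.15, 11.23 and 11.39 in Ifnar1-KO, and 12.30, 12.29 and 12.05 and 11.07, 11.12 and 11.54 in GF mice. The stages were again apart on all arrays, with changes of -1.32 ± 0.16, -1.0 ± 0.16 and -0.97 ± 0.16. Asah1, the acid ceramidase and the closest relative of Naaa in this set, stood at 8.67, 8.35 and 8.37 and then 7.61, 7.79 and 7.64 in CTRL, 8.32, 7.93 and 8.48 and then 7.68, 7.87 and 7.79 in Ifnar1-KO, and 8.54, 8.70 and 8.21 and then 7.63, 7.70 and 8.75 in GF mice. Its stages overlapped in GF mice, where CCR7+ replicate 3 was higher than every other array of both stages. Without that array Asah1 was called in Ifnar1-KO and GF mice (limma adjusted p = 0.0381 and 0.00236). Over all arrays it was called in CTRL (-0.79 ± 0.24, limma adjusted p = 0.0234) and not in Ifnar1-KO (-0.46 ± 0.24, adjusted p = 0.229) or GF mice (-0.46 ± 0.24, adjusted p = 0.219). The CTRL call was lost without CCR7- replicate 1 and without CCR7+ replicate 1 or 3 (limma adjusted p = 0.0937, 0.0659 and 0.0687). With the replicate number as a block it was lost too (adjusted p = 0.0667 in limma). Galc, the galactocerebrosidase, was called in CTRL alone (-0.75 ± 0.20), and that call was lost without CCR7+ replicate 1 or 3 (limma adjusted p = 0.0507 for both). Smpd1, the acid sphingomyelinase, and Pla2g15, the lysosomal phospholipase, were called in no background, with CTRL changes of -0.35 ± 0.23 and -0.11 ± 0.14.

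The 5 genes acting on proteins or phosphate were mixed, with 2 higher and 2 lower in CTRL, 2 higher and 0 lower in Ifnar1-KO, and 2 higher and 1 lower in GF mice. Tpp1, a peptidase that removes tripeptides from the start of proteins, stood at 5.16, 4.92 and 5.06 on CTRL CCR7- and 6.69, 6.86 and 7.30 on CTRL CCR7+ arrays. Its values were 4.85, 4.76 and 4.70 and 6.89, 6.75 and 6.39 in Ifnar1-KO, and 4.86, 5.37 and 4.98 and 5.68, 6.76 and 6.01 in GF mice. All matured arrays exceeded all immature ones, but GF CCR7+ replicates 1 and 3 lay below the other matured arrays. Tpp1 rose by 1.91 ± 0.23 in CTRL, 1.90 ± 0.23 in Ifnar1-KO and 1.08 ± 0.23 in GF mice (limma adjusted p = 1.83e-05, 2.22e-05 and 0.00306). Acp2, a lysosomal acid phosphatase with a membrane anchor, read 7.06, 7.0 and 6.57 and then 7.67, 7.90 and 7.98 in CTRL, 6.31, 7.20 and 6.29 and then 7.84, 7.89 and 7.72 in Ifnar1-KO, and 7.03, 7.02 and 6.41 and then 7.57, 8.06 and 7.78 in GF mice. Its stages did not overlap, and its rises were 0.98 ± 0.23, 1.22 ± 0.23 and 0.98 ± 0.23.

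Ctsa encodes cathepsin A, a carboxypeptidase that also holds the sialidase and the beta-galactosidase in a stable complex. It read 7.14, 6.87 and 6.88 and then 6.43, 6.14 and 6.17 in CTRL, 6.70, 6.74 and 6.94 and then 6.15, 6.55 and 6.42 in Ifnar1-KO, and 7.02, 6.84 and 7.07 and then 6.42, 6.53 and 5.55 in GF mice. The stages were apart, and GF CCR7+ replicate 3 was far lower than the rest. Ctsa was called in CTRL (-0.72 ± 0.20) and GF (-0.81 ± 0.20) and not in Ifnar1-KO mice (-0.42 ± 0.20, limma adjusted p = 0.183), where it was called without that GF array (adjusted p = 0.0219). The CTRL call was lost without CCR7- replicate 1 or CCR7+ replicate 3 (adjusted p = 0.0659 and 0.0539 in limma). Grn encodes progranulin, a secreted and lysosomal precursor of the granulins. It read 11.49, 11.33 and 11.30 and then 10.79, 10.74 and 11.21 in CTRL, 11.46, 11.52 and 11.30 and then 11.15, 10.91 and 11.16 in Ifnar1-KO, and 11.36, 11.19 and 11.35 and then 10.76, 11.22 and 10.64 in GF mice. The stages of Grn were close, apart in CTRL and Ifnar1-KO and overlapping in GF mice. Its CTRL change of -0.46 ± 0.15 (limma adjusted p = 0.0316) was lost with the replicate number as a block (adjusted p = 0.0756 in limma) and without any single CTRL array other than CCR7+ replicate 3 (adjusted p = 0.0525 to 0.114). In GF mice Grn was not called (-0.43 ± 0.15, limma adjusted p = 0.0526), but was without CTRL CCR7+ replicate 3 or GF CCR7+ replicate 2 (adjusted p = 0.0299 and 0.00553). Acp5, the tartrate-resistant phosphatase of osteoclasts and macrophages, was called in no background (0.07 ± 0.23 in CTRL).

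Membrane proteins rose or were not called. In each of CTRL, Ifnar1-KO and GF mice 3 of the 7 rose and 0 fell, the 3 being Lamp1, Lamp2 and Cd63. Lamp1 and Lamp2 encode the glycoproteins that form most of the inner coat of the lysosomal membrane. Lamp1 (probeset 10570344), with 4 E-boxes in the stretch printed above, stood at 8.65, 8.02 and 8.47 on CTRL CCR7- and 11.43, 11.33 and 11.48 on CTRL CCR7+ arrays. In Ifnar1-KO it was 7.71, 8.20 and 7.72 and then 11.26, 11.24 and 11.38, and in GF 8.49, 8.34 and 8.26 and then 11.34, 11.20 and 11.54. The 9 matured arrays lay close together, far above the immature ones. Lamp1 rose by 3.03 ± 0.16 in CTRL (8.19-fold, limma adjusted p = 3.71e-09), 3.42 ± 0.16 in Ifnar1-KO and 3.0 ± 0.16 in GF mice. Lamp2, whose product also serves chaperone-mediated autophagy, moved far less. Its arrays read 9.04, 9.09 and 8.96 and then 9.61, 9.54 and 9.44 in CTRL, 8.86, 8.78 and 9.02 and then 9.70, 9.76 and 9.53 in Ifnar1-KO, and 9.21, 9.23 and 9.19 and then 9.35, 9.73 and 9.60 in GF mice. The stages of Lamp2 did not overlap, though the gap was narrow in GF mice. The rises were 0.50 ± 0.10, 0.78 ± 0.10 and 0.35 ± 0.10, and the GF call was lost without CCR7- replicate 3 or CCR7+ replicate 2 or 3 (limma adjusted p = 0.0508, 0.0875 and 0.0544).

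Cd63 encodes a tetraspanin of late endosomes, lysosomes and the small vesicles released from them. It stood at 9.22, 9.09 and 9.84 on CTRL CCR7- and 12.18, 12.10 and 11.87 on CTRL CCR7+ arrays. In Ifnar1-KO it was 7.84, 9.63 and 8.44 and then 11.95, 11.99 and 11.97, and in GF 9.57, 6.57 and 6.55 and then 12.19, 12.22 and 11.92. Here the immature arrays scattered and the matured ones did not: GF CCR7- replicates 2 and 3 lay far below every other array. Cd63 rose by 2.67 ± 0.62 in CTRL, 3.33 ± 0.62 in Ifnar1-KO and 4.55 ± 0.62 in GF mice (limma adjusted p = 0.00442, 0.000939 and 5.74e-05). On the 9 immature arrays Ccr7 was uneven as well, at 9.03, 8.98 and 8.95 in CTRL, 7.85, 8.54 and 7.29 in Ifnar1-KO and 9.09, 7.25 and 7.77 in GF mice. The GF replicates with low Cd63 also had low Ccr7. Ifnar1-KO replicate 3 had Ccr7 as low (7.29) but Cd63 at 8.44. The part of Ccr7 level in the Cd63 result was not tested. Without the 6 arrays that stood apart, which include those GF replicates, the GF change of Cd63 was 2.62 and remained called.

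The other 4 membrane genes were called in no background. Scarb2, whose product carries glucocerebrosidase to the lysosome, changed by -0.22 ± 0.14, 0.03 ± 0.14 and -0.29 ± 0.14 in CTRL, Ifnar1-KO and GF mice. Cln3, named for a childhood storage disease, changed by -0.36 ± 0.24, -0.09 ± 0.24 and 0.07 ± 0.24. Mcoln1 and Mcoln2 encode ion channels that release calcium from the lysosome. Mcoln1 read 6.32, 6.64 and 6.57 in CCR7- and 6.34, 6.99 and 7.42 in CCR7+ cells of CTRL, 6.86, 6.43 and 6.39 and 7.09, 6.07 and 6.64 of Ifnar1-KO, and 6.37, 6.28 and 6.38 and 7.33, 6.61 and 6.28 of GF mice. Its matured arrays scattered on both sides of the immature ones in Ifnar1-KO mice. Mcoln2 read 3.91, 4.24 and 4.0 and 3.89, 3.91 and 4.0 in CTRL, 4.28, 4.20 and 3.77 and 3.91, 4.01 and 3.98 in Ifnar1-KO, and 4.07, 3.89 and 3.96 and 4.0, 4.13 and 3.93 in GF mice. All Mcoln2 values fell within the approximate background range, so a change could not be detected reliably there.

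**Figure D3:**
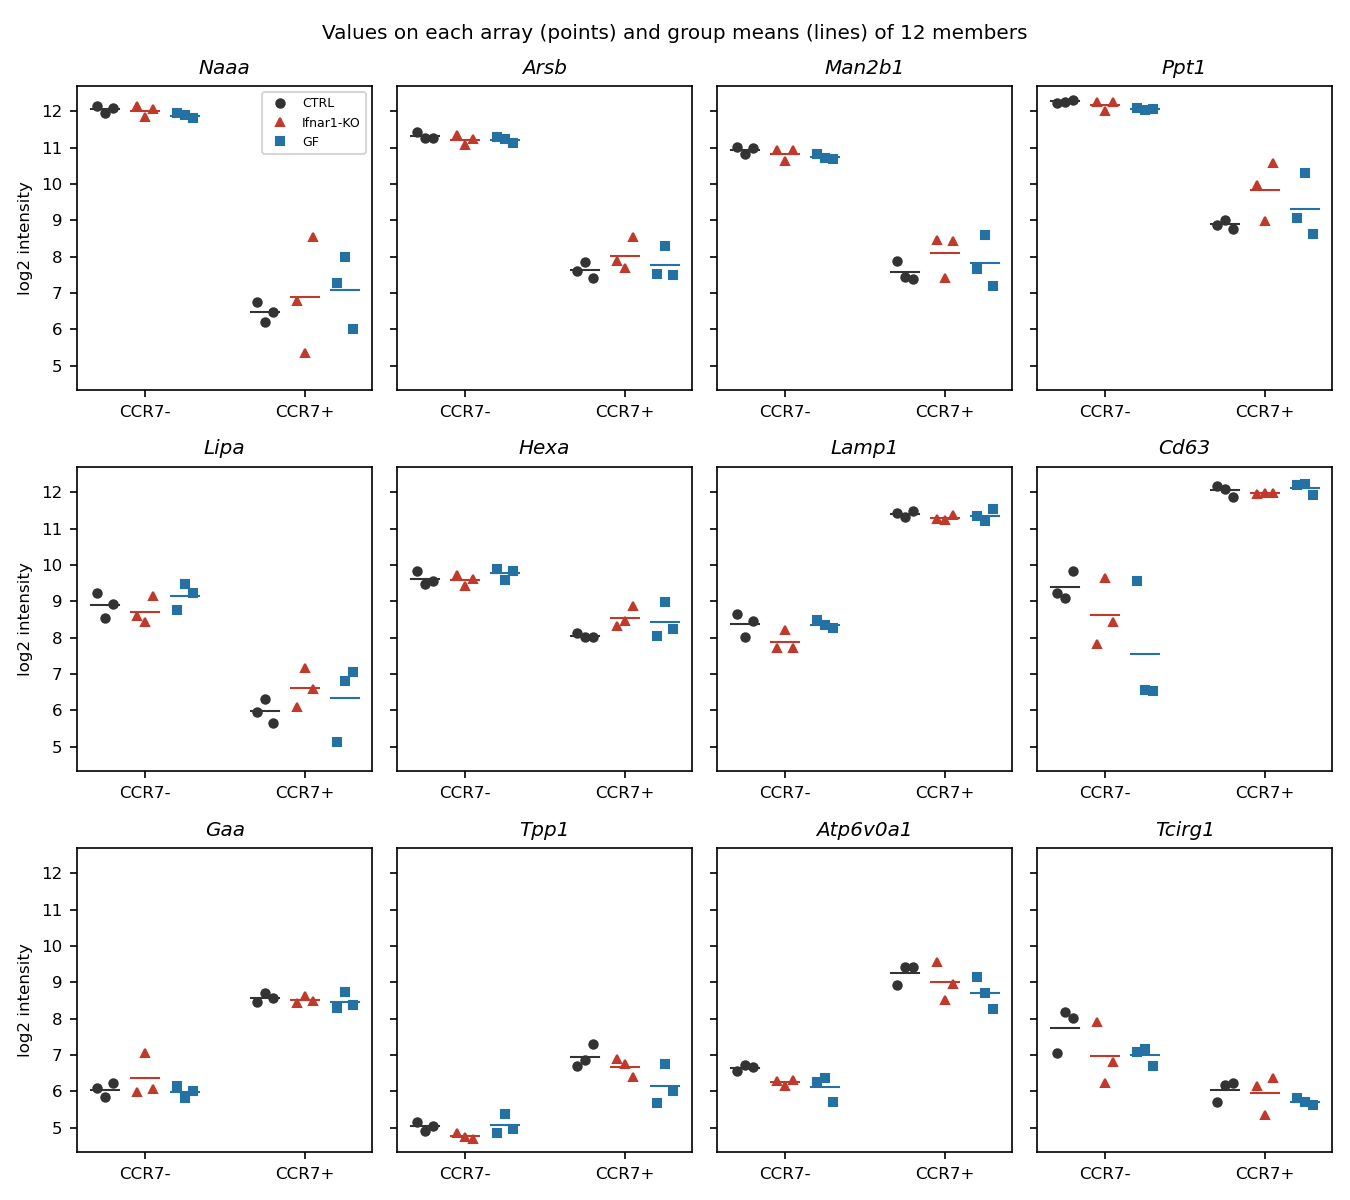
The log2 intensity on each array (vertical axis, the same in all panels) is drawn as a point for 12 of the genes, with a line at each group mean and the CCR7- groups left of the CCR7+ groups. Naaa, Arsb, Man2b1, Ppt1, Lipa and Hexa drop on all CCR7+ arrays, with the widest spread in Ifnar1-KO and GF, while Lamp1 and Cd63 rise to a narrow band and the immature arrays of Cd63 spread from 6.55 to 9.84.

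The proton pump is built of a cytosolic part that hydrolyses ATP and a membrane part that moves protons. Its 6 measured subunits here gave 3 higher and 1 lower in CTRL, 2 higher and 0 lower in Ifnar1-KO, and 2 higher and 1 lower in GF mice. The large membrane subunit, called a, has several forms, and 2 of them moved in opposite directions. Atp6v0a1, the a1 form, stood at 6.56, 6.72 and 6.67 on CTRL CCR7- and 8.93, 9.42 and 9.42 on CTRL CCR7+ arrays. In Ifnar1-KO it was 6.29, 6.16 and 6.31 and then 9.55, 8.52 and 8.97, and in GF 6.27, 6.38 and 5.72 and then 9.14, 8.71 and 8.28. Every matured array lay well above every immature one. Atp6v0a1 rose by 2.60 ± 0.25 in CTRL (6.08-fold, limma adjusted p = 2.14e-06), 2.76 ± 0.25 in Ifnar1-KO and 2.59 ± 0.25 in GF mice. Tcirg1 encodes the a3 form, best known from osteoclasts. It stood at 7.05, 8.18 and 8.02 and then 5.70, 6.18 and 6.24 in CTRL, 7.90, 6.23 and 6.80 and then 6.14, 5.35 and 6.37 in Ifnar1-KO, and 7.10, 7.17 and 6.71 and then 5.83, 5.70 and 5.64 in GF mice. The stages were apart in CTRL and GF and overlapped in Ifnar1-KO mice, where CCR7- replicate 2 lay below CCR7+ replicate 3. Tcirg1 fell in CTRL (-1.71 ± 0.38, limma adjusted p = 0.00335) and GF (-1.27 ± 0.38, adjusted p = 0.0259) and was not called in Ifnar1-KO mice (-1.02 ± 0.38, adjusted p = 0.0766). With the replicate number as a block, Tcirg1 was called in Ifnar1-KO mice too (adjusted p = 0.0113 in limma), as it was without CCR7- replicate 2 (adjusted p = 0.0163). Its GF call was lost without any single GF array other than CCR7- replicate 3 (adjusted p = 0.0512 to 0.0812 in limma).

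Atp6v1a encodes the catalytic subunit that binds ATP. It read 7.74, 7.54 and 7.59 and then 8.13, 7.98 and 8.25 in CTRL, 7.47, 7.78 and 7.52 and then 8.12, 8.11 and 8.21 in Ifnar1-KO, and 7.64, 7.53 and 7.51 and then 7.85, 8.37 and 8.33 in GF mice. Its stages were apart and it rose in each background by a small amount, 0.50 ± 0.13, 0.56 ± 0.13 and 0.62 ± 0.13. Atp6v0d1, the widespread form of subunit d, read 8.33, 8.34 and 8.26 and then 8.70, 8.64 and 8.82 in CTRL, 8.23, 9.10 and 8.33 and then 9.08, 9.20 and 8.78 in Ifnar1-KO, and 8.38, 8.52 and 8.39 and then 8.11, 9.16 and 8.54 in GF mice. It was not called in any over all arrays (0.41 ± 0.23 in CTRL), and its stages overlapped outside CTRL. With the CTRL arrays fitted alone Atp6v0d1 was called in CTRL (limma adjusted p = 0.00556). Without Ifnar1-KO CCR7- replicate 2 it was called in Ifnar1-KO mice (limma adjusted p = 0.0239). Atp6v0d2, the form known from osteoclasts and some macrophages, read 3.41, 3.46 and 3.47 and then 3.98, 3.72 and 3.68 in CTRL, 3.51, 3.50 and 3.47 and then 3.60, 3.96 and 3.53 in Ifnar1-KO, and 3.50, 3.41 and 3.67 and then 3.57, 3.66 and 3.72 in GF mice. These values lie in the approximate background range. Its CTRL call (0.35 ± 0.11, limma adjusted p = 0.0258) was lost without any CCR7- array or without CCR7+ replicate 1 (adjusted p = 0.0544 to 0.12). Atp6v1h, which regulates ATP hydrolysis, was not called (-0.14 ± 0.15 in CTRL and -0.39 ± 0.15 in GF mice), but was in GF mice without Ifnar1-KO CCR7- replicate 3 or GF CCR7- replicate 1 (limma adjusted p = 0.0461 and 0.0435).

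The transcription factors were measured at the level of their own RNA, whereas they are known to be controlled largely by their location in the cell. Tfe3 read 6.81, 6.16 and 6.34 and then 7.21, 7.23 and 7.08 in CTRL, 6.10, 6.93 and 6.59 and then 7.34, 7.11 and 6.90 in Ifnar1-KO, and 6.43, 6.52 and 6.44 and then 7.02, 7.19 and 6.72 in GF mice. The stages were apart in CTRL and GF and overlapped in Ifnar1-KO mice, where CCR7- replicate 2 reached the matured range. Tfe3 rose in CTRL (0.73 ± 0.20, limma adjusted p = 0.0119), a call lost without CCR7- replicate 2 (adjusted p = 0.0638), and was not called in Ifnar1-KO (0.58 ± 0.20, adjusted p = 0.0525) or GF mice (0.51 ± 0.20, adjusted p = 0.0821). Leaving out Ifnar1-KO CCR7- replicate 2 gave a call in both (adjusted p = 0.0107 and 0.0472 in limma), as did leaving out GF CCR7+ replicate 3 (adjusted p = 0.0472 and 0.0493). Several other single arrays did so in 1 of them, namely CTRL CCR7- replicate 1 or 2 and Ifnar1-KO CCR7+ replicate 3 for Ifnar1-KO and Ifnar1-KO CCR7- replicate 1 for GF. Tfeb read 6.06, 6.19 and 5.82 and then 5.73, 5.45 and 5.74 in CTRL, 6.03, 6.05 and 5.94 and then 5.80, 5.64 and 5.82 in Ifnar1-KO, and 6.25, 6.13 and 6.05 and then 5.65, 6.44 and 5.58 in GF mice. The GF stages of Tfeb overlapped through CCR7+ replicate 2, the highest array of all. Tfeb was not called (-0.39 ± 0.18 in CTRL, adjusted p = 0.123 in limma), although without that array its changes in CTRL and GF were (adjusted p = 0.0128 and 0.00459).

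Ratios of related genes on the same array show whether the balance within a pair changed. For each of 6 pairs the log2 ratio of the first gene over the second was taken per array, and the change from CCR7- to CCR7+ was averaged over the 3 backgrounds. The stage labels were permuted within each background, an exact test with 8000 relabelings whose smallest two-sided p is 0.00025, and p-values were adjusted over the 6 pairs. Asah1 over Naaa ran from -3.92 to -3.20 on CCR7- and from -0.76 to 2.75 on CCR7+ arrays, a mean change of 4.60. Atp6v0a1 over Tcirg1 ran from -1.60 to -0.07 and from 2.60 to 3.42, a mean change of 3.98. Lamp1 over Lamp2 ran from -1.30 to -0.40 and from 1.47 to 2.04, a mean change of 2.61. In these 3 pairs all 9 matured arrays lay above all 9 immature arrays. Tfe3 over Tfeb ran from -0.03 to 0.88 and from 0.75 to 1.78, a mean change of 0.91 with overlapping stages. All 4 changes reached the smallest possible p (0.00025, adjusted 0.000375, exact permutation test). In the first 3 of these pairs, Naaa, Atp6v0a1 and Lamp1 by themselves already kept the 9 matured arrays apart from the 9 immature ones. The p-values of those 3 pairs therefore follow largely from the single genes and are not separate support for a changed balance. Mcoln1 over Mcoln2 changed by 0.34 (adjusted p = 0.0804, exact permutation test) and Atp6v0d1 over Atp6v0d2 by 0.12 (adjusted p = 0.379, exact permutation test). Mcoln2 and Atp6v0d2 lay within the approximate background range on every array, so these ratios follow the partner gene and do not measure a balance within the pair. Since probes differ in brightness, only the change of a ratio is meaningful, not its value.

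**Figure D4:**
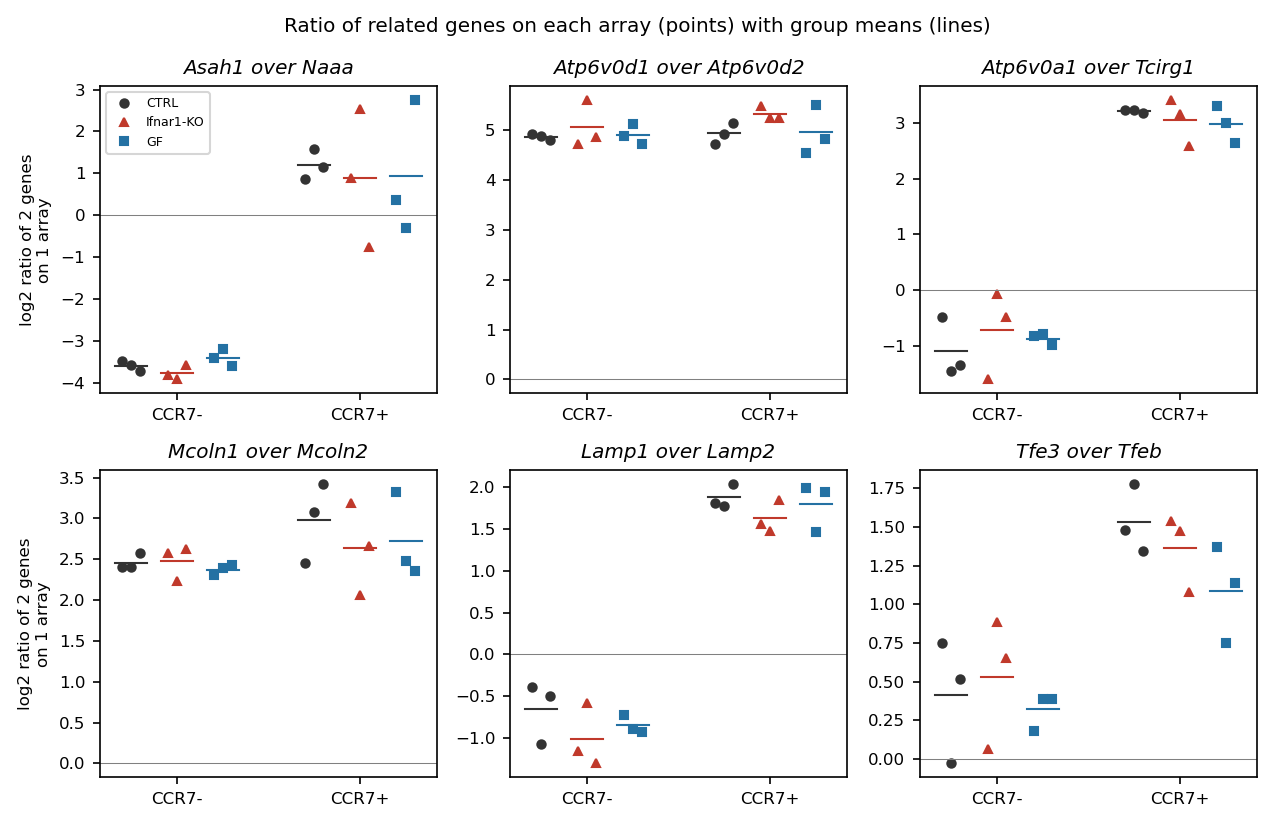
The log2 ratio of the 2 genes of each pair (vertical axis) is drawn for every array as a point, with a line at each group mean. Asah1 over Naaa, Atp6v0a1 over Tcirg1 and Lamp1 over Lamp2 rise on all 9 CCR7+ arrays, by 4.60, 3.98 and 2.61 on average, and the Mcoln1 and Atp6v0d1 pairs overlap between stages.

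Other genes of the same pathway were taken from lists of related genes, and the 3 with the largest called changes in each direction in CTRL mice are named. All of those were called in each background, except Hyal2 in Ifnar1-KO and Atp6v0e in Ifnar1-KO and GF mice. Over all genes 26.2% were called in CTRL, 20.2% in Ifnar1-KO and 21.3% in GF mice, and the shares of each list are given in that order. The median CTRL change was -0.28 for 29 other hydrolases, -0.08 for 43 other membrane proteins, 0.08 for 19 other pump genes, -0.03 for 44 genes of sorting and fusion and 0.16 for 30 genes of the MiT/TFE and mTORC1 circuit, beside 0.07 for all genes. Among the other hydrolases, 3 rose and 8 fell in CTRL, 4 rose and 9 fell in Ifnar1-KO, and 4 rose and 8 fell in GF mice. Those were 37.9%, 44.8% and 41.4% of the list. The largest decreases in CTRL were those of Pld4 (-4.22 ± 0.32), an exonuclease that trims nucleic acids in endolysosomes, Fuca2 (-3.65 ± 0.37), a second fucosidase, and Plbd1 (-3.51 ± 0.32), a phospholipase B-like protein. The rises were those of Scpep1 (2.80 ± 0.17), a serine carboxypeptidase, Smpdl3a (1.12 ± 0.24), a phosphodiesterase related to sphingomyelinase, and Hyal2 (0.62 ± 0.10), a hyaluronidase. The fit moved the count of this list: 11 were called in CTRL, and 18 were called with array weights or with CTRL arrays alone. Among the other membrane proteins, 6 rose and 10 fell in CTRL, 6 rose and 10 fell in Ifnar1-KO, and 7 rose and 9 fell in GF mice. Those were 37.2% of the list in each background. Unlike the 3 called membrane genes above, this list held large decreases, of Cd68 (-3.60 ± 0.32), Unc93b1 (-1.48 ± 0.16), which escorts nucleic acid sensing Toll-like receptors, and Cln6 (-1.24 ± 0.27). Its largest rises were Laptm4b (2.35 ± 0.23), Tmem175 (1.73 ± 0.30), an ion channel of the lysosome, and Sidt2 (1.43 ± 0.14).

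Of the other genes of the pump, 4 rose and 1 fell in CTRL, 3 rose and 1 fell in Ifnar1-KO, and 2 rose and 1 fell in GF mice. Those were 26.3%, 21.1% and 15.8% of the list, near or below the 26.2%, 20.2% and 21.3% of all genes. The one that fell was Atp6v0a2, a further form of subunit a (-2.43 ± 0.13 in CTRL, -2.27 ± 0.13 in Ifnar1-KO and -2.35 ± 0.13 in GF mice). Of the forms of subunit a described here, Atp6v0a1 thus rose while Tcirg1 and Atp6v0a2 fell in CTRL and GF mice. Atp6v1b2, the partner of Atp6v1a in the ATP-hydrolysing ring, rose (1.28 ± 0.18), as did Atp6v0e (0.66 ± 0.20) and Atp6v1d (0.43 ± 0.10) in CTRL mice. Among the genes of sorting to and fusion with lysosomes, 11 rose and 13 fell in CTRL, 9 rose and 9 fell in Ifnar1-KO, and 11 rose and 9 fell in GF mice. Those were 54.5%, 40.9% and 45.5% of the list. Receptors that carry hydrolases from the Golgi went both ways. Sort1, or sortilin, rose (2.51 ± 0.18), and Igf2r, the large mannose 6-phosphate receptor, fell (-2.19 ± 0.37). Hps3 (-3.32 ± 0.24) and Fig4 (-1.52 ± 0.17) fell, and Plekhm2 (1.87 ± 0.25), which couples lysosomes to kinesin, and Vps39 (1.5 ± 0.19), a tethering subunit, rose. Among the genes of the MiT/TFE and mTORC1 circuit, 8 rose and 7 fell in CTRL, 5 rose and 7 fell in Ifnar1-KO, and 8 rose and 7 fell in GF mice. The Rag GTPases, which recruit mTORC1 and TFEB to the lysosome, were divided between Rragd (2.62 ± 0.18) and Rraga (-2.11 ± 0.24). Sqstm1 (1.92 ± 0.14), the autophagy receptor p62, and Tsc1 (1.11 ± 0.25) rose, and Fnip2 (-1.78 ± 0.19) and Lamtor2 (-1.59 ± 0.29) fell.

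The last comparisons asked whether the lack of the interferon receptor or of microbes altered these genes. No lysosomal gene was called in any of them, and few of all genes were. The comparisons share the CTRL arrays, so they are not independent of each other. For the difference between the maturation change of Ifnar1-KO and that of CTRL, limma called 0 of 41, as 0.0% of all genes (0 of the 41 and 901 of all genes had an unadjusted p below 0.05). For GF against CTRL it called 0 of 41, as 0.0% of all genes (2 of the 41 and 660 of all genes had an unadjusted p below 0.05). In immature cells it called 0 of 41 for Ifnar1-KO minus CTRL, where 0.0% of all genes were called, and 0 for GF minus CTRL, where 0.015% were (3 of the 41 below an unadjusted p of 0.05 in each, and 1401 and 1260 of all genes). In matured cells it called 0 of 41 for Ifnar1-KO minus CTRL, where 0.015% of all genes were called, and 0 for GF minus CTRL, where 0.0301% were (2 of the 41 below an unadjusted p of 0.05 in each, and 582 and 1168 of all genes). The 95% interval of the difference of changes from CTRL lay within 1 log2 unit either way for 28 of the 41 genes in Ifnar1-KO and 29 in GF mice. Its median half-width was 0.61 for these genes and 0.38 for all genes. For Lamp1 the interval was -0.08 to 0.86 in Ifnar1-KO and -0.50 to 0.44 in GF mice, whereas for Naaa it was -1.33 to 2.24 and -0.99 to 2.57, too wide to set a close limit.

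The nominal differences, none of which passed the correction, were these. In the maturation change the GF values departed from CTRL for Tpp1 (-0.83 ± 0.33, unadjusted p = 0.0241 and adjusted p = 0.999 in limma) and Cd63 (1.88 ± 0.87, unadjusted p = 0.048 and adjusted p = 0.999 in limma). The arrays that stood low were those already described, 2 matured GF arrays for Tpp1 and 2 immature GF arrays for Cd63. In immature cells Galc (-0.80 ± 0.20), Lamp1 (-0.50 ± 0.16) and Idua (-0.48 ± 0.17) were nominally lower in Ifnar1-KO than in CTRL (limma adjusted p = 0.681 for each). Galc stood at 5.79, 6.03 and 6.08 in CTRL and 5.21, 4.76 and 5.53 in Ifnar1-KO CCR7- cells, and the 2 groups did not overlap. Cln3 (-0.74 ± 0.24), Cd63 (-1.82 ± 0.62) and Galc (-0.49 ± 0.20) were nominally lower in GF than in CTRL immature cells (limma adjusted p = 0.766 for each). In matured cells Ppt1 (0.95 ± 0.37) and Hexa (0.50 ± 0.20) were nominally higher in Ifnar1-KO, and Tpp1 (-0.80 ± 0.23) and Atp6v0a1 (-0.55 ± 0.25) nominally lower in GF than in CTRL. Leaving out arrays changed 2 of these calls. Without GF CCR7- replicate 1, Cd63 was called lower in GF immature cells (adjusted p = 0.0073 in limma). Without the 6 arrays that stood apart, Ppt1 was called higher in Ifnar1-KO than in CTRL matured cells (1.38, adjusted p = 0.0191 in limma).

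Other measured values moved beside these differences. Sex-linked genes differed between backgrounds, with Xist at 7.80 to 9.63 in CTRL, 6.14 to 8.91 in Ifnar1-KO and 3.80 to 4.37 in GF, and the Y-linked Eif2s3y at 3.34 to 3.49, 5.22 to 7.84 and 7.71 to 8.76. Background and these sex-linked levels therefore cannot be told apart in comparisons between backgrounds. The X-linked members are Lamp2 and Tfe3. Lamp2 differed by 0.18 ± 0.10 in immature and 0.03 ± 0.10 in matured cells between GF and CTRL, and by -0.14 ± 0.10 and 0.13 ± 0.10 between Ifnar1-KO and CTRL. Tfe3 differed by 0.02 ± 0.20 and -0.20 ± 0.20, and by 0.10 ± 0.20 and -0.06 ± 0.20. None of these was called.

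Xcr1, the receptor used in the sort, was uneven among the matured arrays, as were some of the falling hydrolases. On CCR7+ arrays Xcr1 was 6.42, 6.48 and 6.30 in CTRL, 7.37, 4.89 and 8.36 in Ifnar1-KO and 6.44, 7.97 and 6.60 in GF mice. The array with the lowest Xcr1, Ifnar1-KO replicate 2, also had the lowest Naaa, and the arrays with the highest Xcr1, Ifnar1-KO replicate 3 and GF replicate 2, had the highest Naaa and Ppt1. Hexa (8.87 and 8.98) and Arsb (8.53 and 8.29) were also highest on those arrays. Man2b1 was highest (8.61) on GF replicate 2, followed by Ifnar1-KO replicates 1 (8.45) and 3 (8.43), and lowest (7.20) on GF replicate 3. Lipa and Psap were not ordered that way. Lipa was highest (7.17) on the array with the lowest Xcr1, and Psap was highest (11.54) on GF replicate 3. The part of Xcr1 level in these values was not tested. The CTRL matured arrays were even in Xcr1 and in Naaa. The decreases of Naaa, Arsb, Man2b1, Ppt1 and Lipa were at least as large in CTRL as in the other backgrounds. Whether their size goes with Xcr1 level was not tested.

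**Figure D5:**
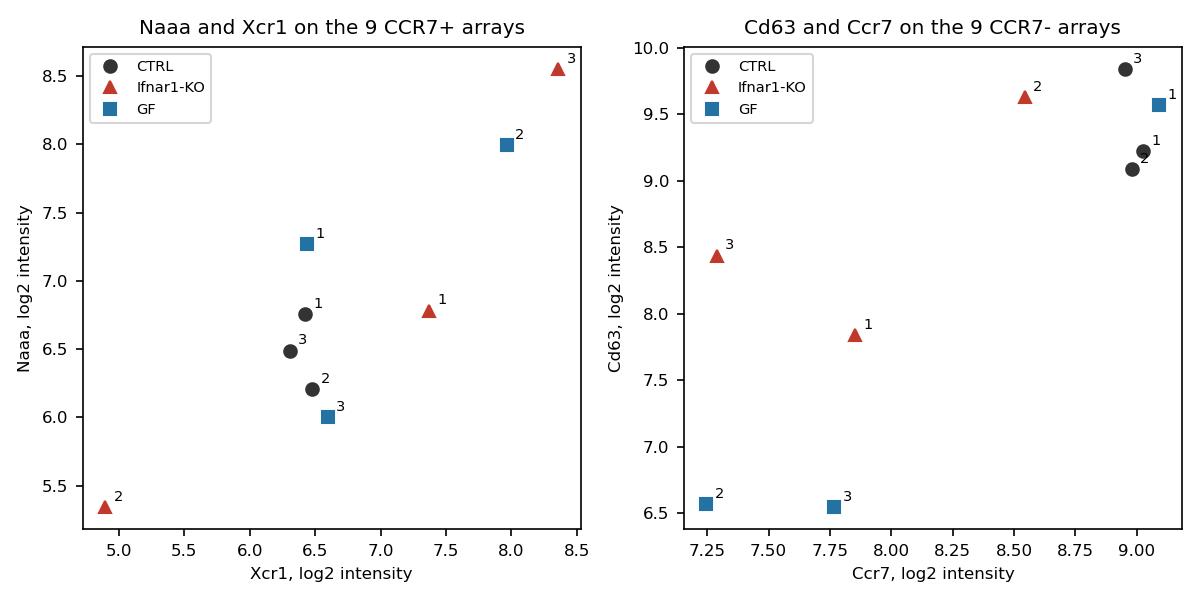
Points are arrays, numbered by replicate, with Naaa against Xcr1 on the 9 CCR7+ arrays (left) and Cd63 against Ccr7 on the 9 CCR7- arrays (right), all axes in log2 intensity. Naaa is lowest (5.34) on the array with the lowest Xcr1 (4.89) and highest (8.55) on the array with the highest (8.36). Cd63 is low (6.57 and 6.55) on 2 GF arrays with Ccr7 at 7.25 and 7.77, but is at 8.44 on Ifnar1-KO replicate 3 with Ccr7 at 7.29.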

How the data were processed

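The deposited table holds log2 intensities of 35556 probesets on 18 arrays, computed by the authors with RMA in oligo per the submitters' processing notes. The protocols in the labels name a NuGEN Ovation Pico amplification. The sources used here state no tool version, nor which arrays went into the normalisation. Per the platform annotation 21789 probesets had 1 gene symbol, 1621 had several and 12146 had none, and the probeset with the highest mean stood for each of the 19938 genes (999 had several). No gene was filtered and no further normalisation was applied. Arrays give no read depth, so their number limits the precision.

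limma 3.58.1 in R 4.3.3 was fitted with 6 group means on all 18 arrays (12 residual degrees of freedom, 14.4 after eBayes) and gave 9 comparisons, each adjusted by Benjamini-Hochberg over all genes. The fit was tested on simulated data. The members and gene lists were chosen with earlier results of these data known. Genes given array by array were the members with the largest called CTRL maturation changes, up to 4 per role and direction, the paralog pairs and the X-linked members. In each other list the 3 largest called changes per direction were named. Further values of members are given as ranges and counts.

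Same-numbered arrays of the 2 stages were checked for pairing by the correlation of their deviations from the group means. It was 0.188, 0.147 and 0.100 in CTRL and 0.284, 0.321 and 0.236 in Ifnar1-KO, and 0.267, 0.00354 and 0.0296 in GF. The array code letters of the CTRL replicate 2 pair are inverted against the others, and the stage was taken from the labels. Promoters came from RefSeq. Tables were handled with pandas 2.3.3 and numpy 2.4.6 under Python 3.11.15, and matplotlib 3.10.9 drew the figures. Ratios were tested by exact permutation, and 29 alternative settings were tried.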

Additional observations from a re-analysis of the deposited data

How the results depend on the processing

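Each result was recomputed under 29 settings: without each of the 18 arrays, with an intensity trend, array weights, only genes at or above the median level, median centring, the mean of all probesets, every probeset, a replicate block, only the groups compared, the r that ends some array codes as covariate, and without both Ifnar1-KO replicate 2 arrays or without the 6 arrays that stood apart, the last chosen after the data were seen. No called change reversed its direction, while small uncalled ones crossed 0 in some settings (Cln3 in GF mice from -0.44 to 0.23). Of the calls, 20 of 28 in CTRL, 17 of 18 in Ifnar1-KO and 12 of 22 in GF were made in every setting. Leaving out 1 array gave 23 to 29 called lysosomal genes in CTRL, 18 to 22 in Ifnar1-KO and 19 to 23 in GF, 0 to 1 for GF minus CTRL in CCR7- (Cd63, without GF CCR7- replicate 1), and 3 to 6 of the other pump genes in place of 5 (3 without CTRL CCR7- replicate 1 or CCR7+ replicate 1 or 2). Without the 6 arrays, which leaves GF 1 array per stage assumed to vary like the other groups, GF had 13 called (5 higher and 8 lower). The GF calls of Glb1, Gusb, Fuca1, Sgsh, Tpp1, Ctsa, Acp2, Lamp2, Atp6v1a and Tcirg1 were lost there (limma adjusted p = 0.0535 to 0.603) and Asah1 was added. In the same setting Ifnar1-KO minus CTRL in CCR7+ had 1 (Ppt1) and 20 other hydrolases were called in CTRL in place of 11. Array weights gave 18 of those and fitting only the groups compared gave 18. With the replicate block 27 lysosomal genes were called in CTRL, 19 in Ifnar1-KO and 21 in GF. Besides the changes given above, it ended the GF call of Fuca1 (limma adjusted p = 0.0641) and added Arsa in CTRL (adjusted p = 0.019). No other lysosomal call changed with it. The cause of these shifts was not tested. Signals near the approximate background, as for Atp6v0d2 and Mcoln2, limit what can be seen.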

Other observations

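Markers of cell types that the sort was meant to remove were read in the same fit. In CTRL mice 2 rose and 3 fell of 15 macrophage markers, 1 and 1 of 5 plasmacytoid DC markers and 2 and 1 of 8 markers of CD172a+ DCs. The counts were 0 and 1 of 7 B cell markers, 1 and 1 of 8 thymic epithelial markers, 1 and 0 of 8 granulocyte markers and 1 and 0 of 3 erythroid markers. Over all genes 12.6% were called higher and 13.6% lower there. Whether lists this short differ from those shares was not tested. Among the macrophage markers, Lyz2, which digests bacterial walls in lysosomes, ran in CTRL mice from 8.69 to 9.61 before and from 5.99 to 8.06 after maturation. Adgre1, Mertk and Vsig4, which mark resident macrophages, were within the approximate background on all 18 arrays. Other markers on this list were not: C1qa reached 4.85, C1qb 4.92 and Timd4 5.26, and C1qc ran from 4.58 to 5.66. A macrophage share of the signal was not tested.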
